A study of Mus musculus with 6 samples.

Results

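Antigen presentation genes of MHC classes I and II were followed in lung cells of WT and Ccr2KO mice before and after silica. The members were 33 listed genes, 20 of class I and 13 of class II, read from probes matched by RefSeq accession and kept where at least 2 of the 6 arrays gave a signal well above background. No probe matched H2-T22, which left 19 class I and 13 class II genes, 32 of the 16422 genes measured. All 32 passed the filter on low signal, 31 of them on all 6 arrays and Rfx5 on 5. The rule names genes by function and uses no measured difference, but the list was chosen with earlier results of these data known.

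Mice were WT (C57BL/6J) or Ccr2KO (B6.129S4-Ccr2tm1Ifc/J, which lack the chemokine receptor CCR2) and were 7 to 9 weeks old when the experiments began. They were left untreated, which stands for day 0, or were studied 28 or 40 days after aspiration of silica into the airways, a model of silicosis. Perfused lungs were digested with enzymes, a Percoll gradient cleared red cells and silica, and the cells without CD45, the surface antigen of leukocytes, were taken by magnetic sorting. Each of the 6 groups is 1 one-colour array hybridised with a pool of RNA from 3 biological replicates, and animals cannot be told from each other. The p-values below therefore rest on the scatter that remains once day and genotype are fitted (2 residual degrees of freedom), not on a spread between animals. The knockout is constitutive, so every cell type of the Ccr2KO mice carries it. Silica groups were set against untreated mice, not against mice given an aspiration without silica.

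Levels are log2 processed signal minus the 75th percentile of the same array, so a level of 0 is the 75th percentile and a difference of 1 is 2-fold. The 75th percentile itself lay between 793 and 1179 signal units, lowest on the day 40 array in each genotype, and 58.2 to 64.3% of probes were well above background. The label CD45-negative was set against leukocyte genes. Ptprc, which encodes CD45, was well above background on all 6 arrays, at 1.54, 2.62 and 0.29 in WT cells (untreated, day 28, day 40) and 0.45, 2.14 and -0.61 in Ccr2KO cells, and so were all 12 pan-leukocyte genes examined. Leukocyte transcripts were therefore present in every preparation and were most abundant on both day 28 arrays. Ccr2 itself was at 0.09, 1.38 and -1.70 in WT cells and at -5.07, -1.51 and -3.64 in Ccr2KO cells, lower in Ccr2KO cells on each day. In such mixed preparations fewer cells of a type and less RNA per cell cannot be told apart.

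Class I molecules, a heavy chain (H2-K1, H2-D1 and the H2-T, H2-M and H2-Q genes) bound to beta-2-microglobulin (B2m), display peptides from inside the cell on nearly all nucleated cells. Proteasomes cut these peptides, the TAP transporter carries them into the endoplasmic reticulum, tapasin loads them, and NLRC5 activates transcription of the pathway. Class II molecules (H2-A and H2-E in the mouse) display peptides from endosomes on dendritic cells, B cells and macrophages, and in the lung also on type 2 alveolar epithelial cells. The invariant chain Cd74 guides them, H2-DM exchanges the peptide, H2-O restrains H2-DM, and CIITA is the master activator of transcription. C57BL/6 mice are known to lack a working H2-E alpha chain gene, so they carry H2-Eb1 RNA but no H2-E on the cell surface.

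RefSeq promoter windows on GRCm38.p6, each the 250 bases before the annotated start, were found for 25 of the 32 genes. The remaining members were H2-T24, Tap2, Tapbpl, Nlrc5, Ciita, Cd74 and H2-Ab1. Windows are shown 5′ to 3′ for the members on which the results turn, with motif matches in capitals. For class I these were H2-D1 (chr17:35262844-35263093, plus strand), a classical heavy chain, B2m (chr2:122147437-122147686, plus strand), and Psmb8 (chr17:34197945-34198194, plus strand), an immunoproteasome subunit:
H2-D1: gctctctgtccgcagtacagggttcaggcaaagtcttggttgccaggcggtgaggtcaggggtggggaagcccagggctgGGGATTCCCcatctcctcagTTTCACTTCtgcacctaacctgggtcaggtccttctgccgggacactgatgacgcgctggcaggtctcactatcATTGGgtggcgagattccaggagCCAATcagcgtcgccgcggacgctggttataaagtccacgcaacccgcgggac
B2m: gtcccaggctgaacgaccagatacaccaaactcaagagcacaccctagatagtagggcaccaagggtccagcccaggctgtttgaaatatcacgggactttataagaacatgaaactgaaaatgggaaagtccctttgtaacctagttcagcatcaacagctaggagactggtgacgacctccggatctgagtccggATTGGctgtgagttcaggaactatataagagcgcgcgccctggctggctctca
Psmb8: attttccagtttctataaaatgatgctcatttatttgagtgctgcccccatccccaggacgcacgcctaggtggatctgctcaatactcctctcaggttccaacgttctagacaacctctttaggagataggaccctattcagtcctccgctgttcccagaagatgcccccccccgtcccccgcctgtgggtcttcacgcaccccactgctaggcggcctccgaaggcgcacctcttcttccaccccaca

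For class II the windows of H2-Eb1 (chr17:34305617-34305866, plus strand), the beta chain of H2-E, and of the 3 members with a called late fall, H2-DMb2 (chr17:34144999-34145248, plus strand), H2-Oa (chr17:34092129-34092378, plus strand) and H2-Ob (chr17:34238655-34238904, plus strand), were as follows:
H2-Eb1: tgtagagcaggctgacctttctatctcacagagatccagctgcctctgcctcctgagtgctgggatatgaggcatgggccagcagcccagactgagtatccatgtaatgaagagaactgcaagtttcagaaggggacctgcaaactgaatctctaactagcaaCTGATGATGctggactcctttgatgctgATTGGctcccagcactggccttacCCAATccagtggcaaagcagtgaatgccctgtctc
H2-DMb2: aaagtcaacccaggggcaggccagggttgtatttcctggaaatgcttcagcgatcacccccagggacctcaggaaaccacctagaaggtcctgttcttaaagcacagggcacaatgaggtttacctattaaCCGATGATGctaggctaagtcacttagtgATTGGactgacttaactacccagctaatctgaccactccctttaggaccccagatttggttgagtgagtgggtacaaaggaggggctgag
H2-Oa: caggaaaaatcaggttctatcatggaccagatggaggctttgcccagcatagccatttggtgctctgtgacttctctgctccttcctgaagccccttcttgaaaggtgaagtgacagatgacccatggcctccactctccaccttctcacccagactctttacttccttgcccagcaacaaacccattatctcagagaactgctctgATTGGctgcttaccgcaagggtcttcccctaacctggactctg
H2-Ob: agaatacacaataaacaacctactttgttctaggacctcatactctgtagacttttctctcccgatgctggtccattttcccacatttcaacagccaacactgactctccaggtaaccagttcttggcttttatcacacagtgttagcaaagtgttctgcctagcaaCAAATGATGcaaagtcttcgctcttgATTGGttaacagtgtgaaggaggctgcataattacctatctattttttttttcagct

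Both strands were searched for 4 motifs, which were chosen after the members' windows had been read and do not overlap each other in the windows shown. The 3′ part of the X box, CNNATGATG, to which the RFX complex and its partners bind in class II promoters, occurred in 4 of 10 class II windows (H2-Eb1, H2-DMb1, H2-DMb2 and H2-Ob), in 2 of 15 class I windows (H2-T23 and Psme2) and in 2.68% of the windows of 27025 genes. The Y box CCAAT, bound by NF-Y, occurred in 8 of 10 class II and 10 of 15 class I windows, against 37.5% of all windows. An interferon-stimulated response element, TTTCACTTC, occurred in 5 of 15 class I windows (H2-K1, H2-D1, H2-M3, H2-Q4 and H2-Q7), in 0 class II windows and in 0.477% of all. The kappa B site GGGATTCCC was in the windows of H2-K1, H2-D1 and H2-Q7, in 0 class II windows and in 0.352% of all. The 3 class II members that fell late had no motif in common other than the Y box, and Psmb8 held none of the 4. A match describes letters in a window and is neither a binding site nor a cause.

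The class II genes shared a peak at day 28. In WT cells 12 of 13 members were highest on the day 28 array and in Ccr2KO cells 13 of 13 were, Rfx5 in WT being the exception, against 25% and 18.3% of all genes. The same counts held on unscaled signals, where 40.6% and 34.4% of all genes were highest at day 28. Rfx5 lay near background, and on scaled values its second probe was highest at day 40 in Ccr2KO cells. The day on which class I genes were highest depended on the scaling. On scaled values 13 of 19 were highest at day 40 in each genotype (35.9% of all genes in WT and 40.6% in Ccr2KO cells), and on unscaled signals 4 of 19 were, with 10 in WT and 13 in Ccr2KO cells highest at day 28. The widest class II span over the 6 arrays was that of H2-Ob (3.29), and the widest class I span that of H2-T24 (0.88).

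**Figure D1:**
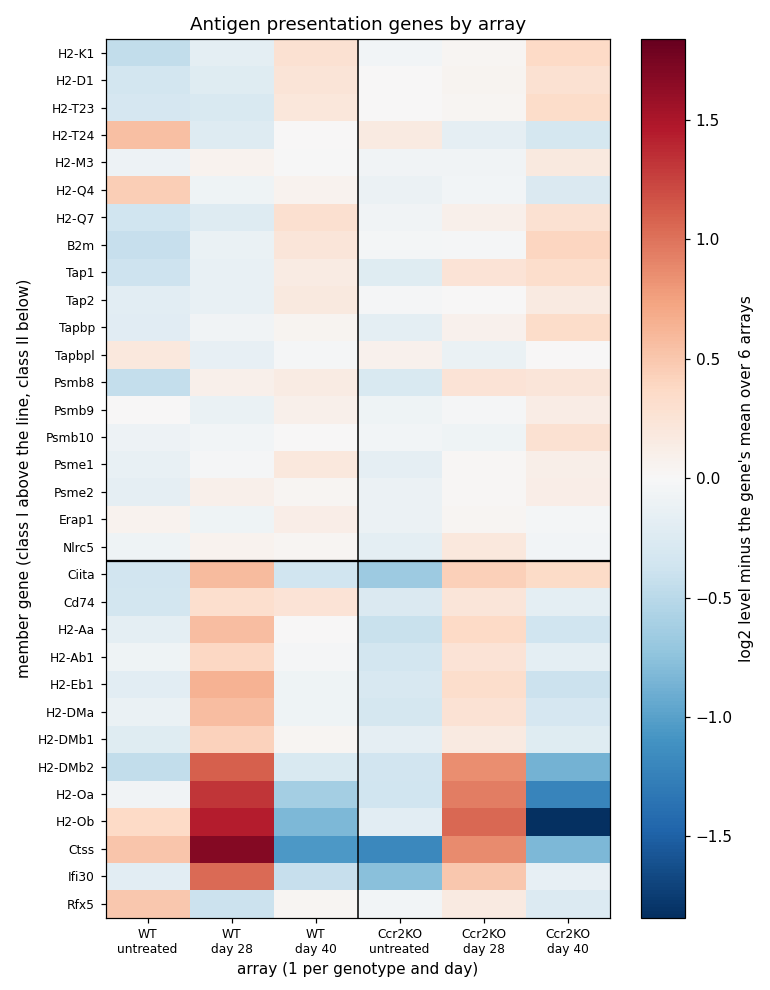
Level of each of the 32 member genes on each of the 6 arrays, as log2 level minus the gene's own mean over the 6 arrays (colour scale; class I above the horizontal line, class II below, WT left of the vertical line). Apart from Rfx5 in WT, the class II block is red on both day 28 arrays, most strongly for H2-Ob, H2-Oa, Ctss and H2-DMb2. No class I gene spans more than 0.88.

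Among the genes of the class II molecules, H2-Ab1, the beta chain of H2-A, was at 6.82, 7.28 and 6.88 in WT cells and 6.56, 7.15 and 6.73 in Ccr2KO cells. H2-Aa, its alpha chain partner, was at 3.34, 4.09 and 3.53 in WT cells and 3.11, 3.88 and 3.15 in Ccr2KO cells. H2-Eb1 was at 5.93, 6.77 and 6.05 in WT cells and 5.83, 6.46 and 5.74 in Ccr2KO cells. In all 3 genes both day 28 arrays were above the other 4. On scaled values the day 40 arrays were back within 0.19 of the untreated array of the same genotype. On unscaled signals each day 40 array was below that untreated array. For H2-Eb1 these were 15.83 against 16.14 in WT and 15.37 against 15.75 in Ccr2KO cells. Cd74, which guides these molecules through the cell, was at 5.97, 6.61 and 6.56 in WT cells and 6.04, 6.53 and 6.12 in Ccr2KO cells. On these scaled values its day 28 arrays were close to each other, but at day 40 the WT array stayed near the day 28 level and the Ccr2KO array did not. On unscaled signals Cd74 was lower at day 40 than at day 28 in both genotypes. It was at 16.17, 16.79 and 16.33 in WT cells and 15.96, 16.46 and 15.75 in Ccr2KO cells.

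Ciita, the activator of the class II genes, was at -0.90, 0.04 and -0.91 in WT cells and -1.21, -0.10 and -0.19 in Ccr2KO cells. Its day 28 arrays were the highest of each genotype, and its day 40 arrays lay on opposite sides, at the untreated level in WT and near the day 28 level in Ccr2KO cells. On unscaled signals Ciita was at 9.30, 10.22 and 8.87 in WT cells, so day 40 was below untreated. In Ccr2KO cells it was at 8.71, 9.83 and 9.44. Rfx5, a subunit of the RFX complex, ranged from -5.06 to -4.17 and showed no order by day that both genotypes shared. On the Ccr2KO day 40 array it was at -4.92, where the lowest level well above background was -4.93. Its second probe was at -4.96, -4.88 and -4.66 in Ccr2KO cells.

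The genes of peptide exchange moved by different amounts. H2-DMa and H2-DMb1, chains of H2-DM, spanned 0.90 and 0.65 over the 6 arrays. H2-DMb2, a second beta chain gene, was at -1.79, -0.23 and -1.61 in WT cells and -1.68, -0.48 and -2.20 in Ccr2KO cells, with both day 28 arrays above the other 4. H2-Oa, the alpha chain of H2-O, was at 0.11, 1.48 and -0.45 in WT cells and -0.19, 1.12 and -1.04 in Ccr2KO cells. H2-Ob, the beta chain, was at 0.72, 1.81 and -0.47 in WT cells and 0.16, 1.42 and -1.48 in Ccr2KO cells, and its second probe at 0.36, 1.58, -0.37, 0.10, 1.34 and -1.36 in the same order. For both H2-O chains the order was day 28, then untreated, then day 40 in each genotype, with no overlap between the days.

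Among the lysosomal genes, Ctss spanned 2.88 over the 6 arrays and Ifi30 1.82. Ctss, the cysteine protease that trims the invariant chain, was at 4.53, 5.72 and 2.97 in WT cells and 2.84, 4.89 and 3.20 in Ccr2KO cells. The untreated arrays of the genotypes thus stood 1.69 apart, WT high and Ccr2KO low. Ifi30, the lysosomal thiol reductase GILT, was at 2.03, 3.27 and 1.80 in WT cells and 1.46, 2.72 and 2.07 in Ccr2KO cells, again highest at day 28.

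With 1 array on each side, 5 of 13 class II genes were at least 2-fold higher at day 28 than untreated in WT cells, where 9.14% of all genes were, and 6 of 13 in Ccr2KO cells, where 9.37% of all genes were. The class II median was 0.83 in WT and 0.78 in Ccr2KO cells, against -0.03 and -0.07 over all genes. By day 40 the class II median difference from untreated was 0.06 in WT and 0.01 in Ccr2KO cells on these scaled values. No class I gene differed 2-fold in any of these pairs, and their medians were 0.12 and 0.06 at day 28 and 0.26 and 0.27 at day 40 (WT, Ccr2KO).

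Between day 28 and day 40, class II genes were lower and 3 of the 13 fell by test: H2-Ob by 6.03-fold, H2-Oa by 4.11-fold and H2-DMb2 by 2.94-fold, over both genotypes. A fall was called for 2.53% of all genes. On the log2 scale the differences were -2.59 ± 0.19 for H2-Ob (± SE, n = 2 arrays a day, limma with Benjamini-Hochberg adjusted p = 0.0157), -2.04 ± 0.13 for H2-Oa (adjusted p = 0.0148) and -1.55 ± 0.20 for H2-DMb2 (adjusted p = 0.0463). The other 10 class II genes did not pass. Ctss differed by -2.22 ± 0.48 (limma adjusted p = 0.14), with WT at -2.75 and Ccr2KO at -1.69, and Ifi30 by -1.07 ± 0.26 (adjusted p = 0.171). H2-Eb1, H2-Aa and H2-DMa differed by -0.72 ± 0.12, -0.65 ± 0.11 and -0.61 ± 0.11 (limma adjusted p from 0.0825 to 0.0939). Ciita (-0.52 ± 0.29), H2-Ab1 (-0.41 ± 0.11), H2-DMb1 (-0.38 ± 0.14), Cd74 (-0.23 ± 0.16) and Rfx5 (0.00 ± 0.30) were the smallest, with limma adjusted p between 0.207 and 0.995. The class II median was -0.65 with 12 of 13 values below 0, against a median of 0.10 over all genes. Both day 28 arrays were above both day 40 arrays for 11 of 13 class II genes and 1 of 19 class I genes, against 14.9% of all genes.

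When the slide row was fitted as a block, or without any one of the 4 silica arrays, no gene of the 32 passed for day 40 against day 28 (1 residual degree of freedom in each fit), while the size of the 3 falls held, from -2.94 to -2.33 for H2-Ob, -2.39 to -1.91 for H2-Oa and -1.90 to -1.29 for H2-DMb2 over all alternatives. For these days the block and the omission of Ccr2KO day 28 were the same fit, so the block was no separate check. The H2-DMb2 call alone was also lost with no filter (limma adjusted p = 0.0973), with quantile normalization (0.0685) and with a scaling added after the data were seen (0.0505). Within slide row 2, which held WT day 28 and day 40, the class II median was -0.72 and 5 of 13 genes were at least 2-fold lower, where 5.62% of all genes were. The Ccr2KO pair, which spans both rows, gave a median of -0.66 and 4 of 13 genes at least 2-fold lower, where 4.77% of all genes were.

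**Figure D2:**
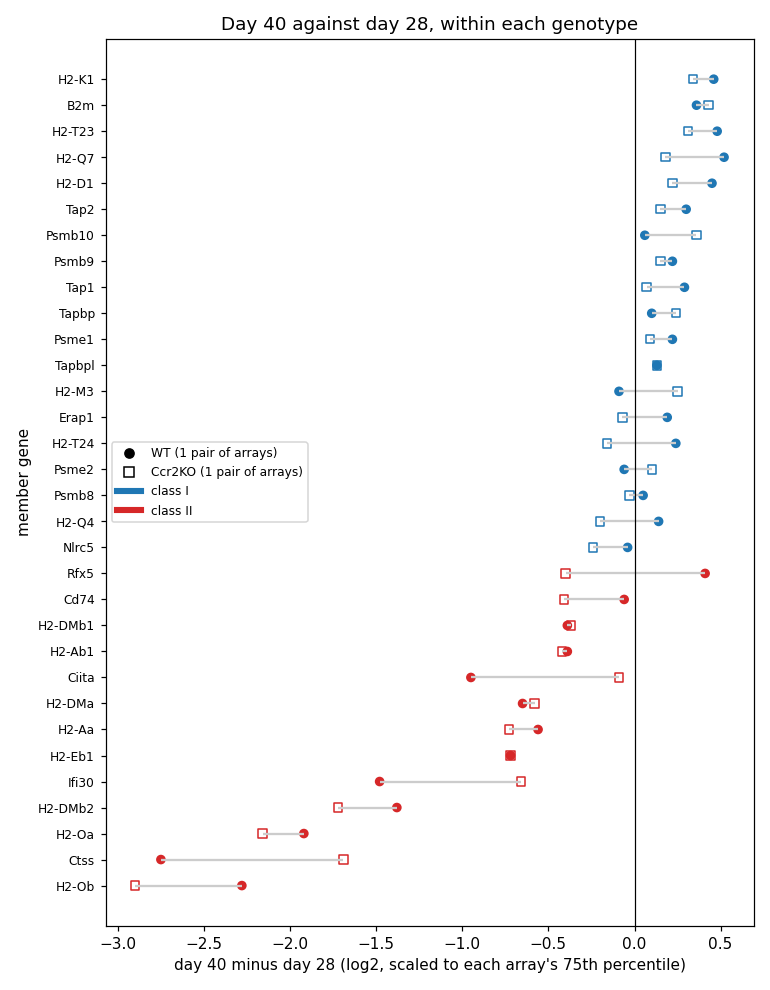
Day 40 minus day 28 for each member gene on the log2 scale (x axis), in WT (filled circles) and Ccr2KO cells (open squares), each from 1 pair of arrays, with class I in blue and class II in red. Class II genes lie left of 0 except Rfx5 in WT, down to -2.90 for H2-Ob in Ccr2KO cells, and class I genes lie between -0.24 and 0.52.

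Most leukocyte genes moved in the same direction over the same days. The mean of the 12 pan-leukocyte genes was 2.41, 3.68 and 1.44 in WT cells and 1.45, 3.28 and 0.98 in Ccr2KO cells, and 11 of the 12 fell from day 28 to day 40 (median -2.44). The calls of leukocyte lists, like all calls for these days over the 16422 genes, numbered 0 in limma with a slide row block or without any one silica array (1495 to 2008 genes at an unadjusted p below 0.05). Of 10 B cell genes 6 fell (median -2.77), their mean level being -0.84, 0.36 and -1.71 in WT cells and -1.12, 0.24 and -2.59 in Ccr2KO cells. Of 9 dendritic cell genes 4 fell (median -2.26), of 8 T and NK cell genes 5 (median -1.97) and of 10 macrophage and monocyte genes 1 (median -1.66). Not every gene of these lists was lower at day 40. Above 0 were 3 dendritic cell genes (Zbtb46 and Cst3 at 0.17, Siglech at 0.12) and 1 T and NK cell gene (Cd4 at 0.06). Over all genes 2.53% fell. None of the 10 type 2 alveolar genes fell in limma (0 at an unadjusted p below 0.05, median 0.12), and their mean level was 6.51, 5.93 and 6.13 in WT cells and 6.42, 5.78 and 5.83 in Ccr2KO cells. B cell and dendritic cell genes were well above background on all 6 arrays for 8 of 10 and 8 of 9, respectively. H2-O is known mainly from B cells, thymic epithelium and some dendritic cells. The part of leukocyte RNA in the class II values was not tested.

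**Figure D3:**
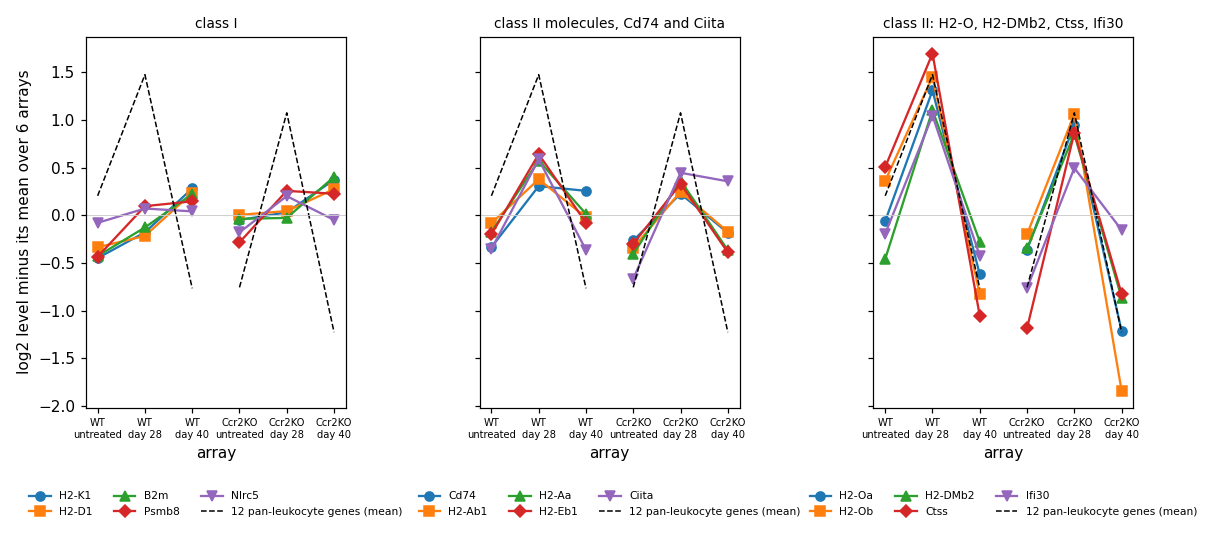
Log2 level minus the gene's own mean over the 6 arrays (y axis) for 5 class I genes (left), 5 class II genes including Cd74 and Ciita (middle) and 5 class II genes with wide spans (right), by array (x axis), with the mean of 12 pan-leukocyte genes as a dashed line in each panel. The dashed line is highest at day 28 in each genotype (3.68 and 3.28 before centring); the right panel spans about as much, the middle panel less, and the class I genes on the left do not peak at day 28 together on this scale.

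The classical class I heavy chain genes and B2m spanned less than 1 over the 6 arrays. H2-K1 was at 7.20, 7.47 and 7.93 in WT cells and 7.60, 7.68 and 8.02 in Ccr2KO cells. H2-D1 was at 6.88, 7.00 and 7.45 in WT cells and 7.22, 7.26 and 7.49 in Ccr2KO cells. B2m, the shared light chain, was at 7.22, 7.52 and 7.87 in WT cells and 7.61, 7.62 and 8.05 in Ccr2KO cells. On these scaled values all 3 were lowest untreated and highest at day 40 in both genotypes, and the WT untreated array was the lowest of the 6. H2-T23, the gene of the Qa-1 antigen, and H2-Q7 had spans of 0.66 each and the same order in WT and Ccr2KO cells. Against this direction, H2-T24 was at -0.09, -0.88 and -0.64 in WT cells and -0.48, -0.81 and -0.96 in Ccr2KO cells, highest untreated in each genotype, and H2-Q4 spanned 0.71 with its highest value on the WT untreated array (6.73). The second H2-T24 probe lay lower, from -2.90 to -2.03, and was also highest untreated in each genotype. Sequences of H2-K1, H2-D1 and the H2-Q and H2-T genes are close to each other, so their probes may read one another and single values are uncertain.

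In peptide processing, Psmb8, the immunoproteasome subunit LMP7, was at 3.10, 3.63 and 3.68 in WT cells and 3.25, 3.79 and 3.76 in Ccr2KO cells. All 4 silica arrays were above both untreated arrays, with no overlap. Psmb9 and Psmb10, the other catalytic subunits of the immunoproteasome, spanned 0.26 and 0.37, and the proteasome activator genes Psme1 and Psme2 0.37 and 0.28. Tap1, one chain of the peptide transporter, was at 0.53, 0.77 and 1.06 in WT cells and 0.69, 1.16 and 1.23 in Ccr2KO cells, with all silica arrays above both untreated arrays. Tap2, the other chain, spanned 0.37. Tapasin (Tapbp) spanned 0.55, its relative Tapbpl ranged from 1.05 to 1.39, the peptide-trimming enzyme gene Erap1 from -1.37 to -1.14, and H2-M3 from 1.39 to 1.67. Nlrc5, the activator of class I genes, was at 1.48, 1.63 and 1.6 in WT cells and 1.38, 1.76 and 1.51 in Ccr2KO cells. Its second probe lay far lower, near background, and was well above background on 5 arrays. That probe was at -4.51, -4.49 and -4.38 in WT cells and -4.61, -4.25 and -4.82 in Ccr2KO cells, so the level of Nlrc5 depended on the probe.

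When both silica days were averaged and set against untreated cells, over both genotypes, 1 of 19 class I genes rose, none fell and 18 did not pass, while 10.5% of all genes rose. Psmb8 rose 1.45-fold (0.54 ± 0.09, n = 4 silica and 2 untreated arrays, limma with Benjamini-Hochberg adjusted p = 0.0288). The nearest to it were Tap1 at 0.45 ± 0.11 (limma adjusted p = 0.0558) and H2-T24 at -0.54 ± 0.14 (adjusted p = 0.0658). H2-K1 was at 0.37 ± 0.11 (limma adjusted p = 0.0933) and B2m at 0.35 ± 0.11 (adjusted p = 0.102). The class I median was 0.20 with 16 of 19 values above 0, against -0.01 over all genes. Its size depended on the scaling. In the authors' unscaled values it was 0.02 with 11 values above 0, against -0.19 over all genes. With quantile normalization it was 0.08, against -0.04 over all genes. All 4 silica arrays were above both untreated arrays for 7 of 19 class I genes and 1 of 13 class II genes, against 21.1% of all genes. Both untreated arrays lay in slide row 1 with Ccr2KO day 28, and the other silica arrays lay in row 2. A fit with the row as a block can therefore separate silica from row only through Ccr2KO day 28. A call lost in that fit does not decide between them. The call of Psmb8 was lost without any one array (limma adjusted p from 0.0906 to 0.122), with no filter (0.0562), in the authors' table (0.0527) and when the slide row was a block (0.339), while the value itself stayed between 0.36 and 0.57.

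Of the 13 class II genes none passed for silica by limma (adjusted p from 0.0509), and 9 reached an unadjusted p below 0.05, as did 37.5% of all genes. The largest values were Ciita at 0.76 ± 0.25 (limma adjusted p = 0.108), Ifi30 at 0.72 ± 0.22 (adjusted p = 0.0938) and H2-DMb2 at 0.61 ± 0.17 (adjusted p = 0.083). H2-Aa, at 0.44 ± 0.10, was nearest to the threshold (limma adjusted p = 0.0509). The median was 0.38 and 11 of 13 values were above 0. This average joins day 28 arrays that were high with day 40 arrays that were not.

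Class I showed no called change from day 28 to day 40 in limma (3 of 19 at an unadjusted p below 0.05). Its median was 0.17, with values from -0.14 for Nlrc5 to 0.40 for H2-K1 and H2-T23 (limma adjusted p = 0.27 and 0.233). The direction depended on the scaling: 17 of 19 class I values were above 0 after scaling and 4 in the authors' unscaled values, where the class I median was -0.18, the median of all genes -0.25 and that of the 12 class II genes in them -1.03. Unscaled, H2-K1 differed by 0.05, B2m by 0.04 and H2-D1 by -0.01 between these days. Of the 13 class II genes 12 were below 0 on the scaled and 13 on the unscaled signal. Of all 16422 genes 5286 were below 0 and 11136 above 0 on the scaled signal, and 13914 were below 0 on the unscaled signal.

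Between genotypes (Ccr2KO minus WT, 3 arrays each) none of the 32 genes passed (4 at an unadjusted p below 0.05, all class II), and neither did any of the 16422 genes (0%), although 1525 genes reached an unadjusted p below 0.05 in limma. Class II values were below 0 for 12 of 13 genes with a median of -0.24, and class I values had a median of 0.10. Over all genes the median was 0.03, with 7014 of 16422 below 0. The largest class II values were Ctss at -0.77 ± 0.39 (95% interval -1.83 to 0.30), H2-Ob at -0.65 ± 0.15 (-1.07 to -0.24, limma adjusted p = 0.449) and H2-Oa at -0.42 ± 0.11 (-0.71 to -0.13, adjusted p = 0.463). Class I intervals lay between -0.68 and 0.52. Among untreated arrays 1 class II gene, Ctss, was at least 2-fold lower in Ccr2KO than in WT cells, where 2.81% of all genes were. The Ctss differences were -1.69 untreated, -0.83 at day 28 and 0.23 at day 40, so its mean rested mostly on the untreated pair. At day 40 H2-Ob was at least 2-fold lower (-1.01), where 1.6% of all genes were. The 12 pan-leukocyte genes had a median of -0.60 for the same comparison over the 3 days, 12 of 12 below 0. The 10 macrophage and monocyte genes had a median of -0.03. By pair, their median was -1.52 untreated (7 of 10 below 0), -0.24 at day 28 (7 of 10 below 0) and 0.66 at day 40 (7 of 10 above 0). The part of either list in the class II values was not tested. In the authors' unscaled values the class I median was -0.13 and that of class II -0.47, against -0.2 over all genes.

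The difference of the silica responses (Ccr2KO minus WT) was called for none of the 32 genes nor for any other gene (0%, limma, 619 of 16422 at an unadjusted p below 0.05). Its median was 0.02 in class I and -0.08 in class II. Intervals were wide, from -1.42 to 1.15 in class I and from -6.63 to 7.07 in class II, since both silica days were joined in each genotype. On simulated data this comparison recovered 0% of genes given an 8-fold difference, so a difference of that size was not detectable in the simulated setting.

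Of 42 further genes of antigen presentation 36 were measured, and 5 rose and 1 fell after silica, where 10.5% of all genes rose and 9.33% fell. H2-Eb2, a second H2-E beta chain gene, was at -1.91, 0.36 and -0.78 in WT cells and -1.50, 0.05 and -1.34 in Ccr2KO cells and rose by 1.28 ± 0.23 (limma adjusted p = 0.0322). The endosomal protease genes Lgmn (0.64 ± 0.11) and Ctsd (0.62 ± 0.09) and the class I loading chaperones Calr (0.52 ± 0.11) and Pdia3 (0.49 ± 0.10) rose too. H2-Q1, a class I heavy chain gene, was at -1.14, -2.55 and -2.49 in WT cells and -1.01, -2.55 and -2.62 in Ccr2KO cells and fell by 1.48 ± 0.11 (limma adjusted p = 0.00806). From day 28 to day 40 only Cd86, a costimulatory receptor ligand of antigen-presenting cells, fell. That is 1 of 36 genes, near the 2.53% of all genes that fell. Cd86 differed by -2.60 ± 0.15 (limma adjusted p = 0.0147), from 0.49 to -2.19 in WT and from -0.43 to -2.96 in Ccr2KO cells. In size it lay beside H2-Ob and the pan-leukocyte genes.

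Interferons are the known inducers of class I genes and, through CIITA, of class II genes. Of 35 interferon response genes 34 were measured, and 6 rose and 1 fell after silica (median 0.18), against the same 10.5% and 9.33% of all genes. Silica calls in these further lists, as over all 16422 genes, numbered 0 in limma when the slide row was a block or without either day 28 array (2471 to 4720 genes at an unadjusted p below 0.05). Those that rose were Cxcl9 (3.85 ± 0.58), Zbp1 (1.91 ± 0.21), Rsad2 (1.66 ± 0.21), Irf7 (1.20 ± 0.18), Ifi44 (0.78 ± 0.17) and Gbp5 (0.48 ± 0.09). Irgm1, an interferon-induced GTPase, fell by 0.70 ± 0.11. Irf1 was at 5.70, 4.81 and 5.72 in WT cells and 6.73, 4.68 and 5.53 in Ccr2KO cells, lowest at day 28 in each genotype (-1.03 ± 0.30 for silica, limma adjusted p = 0.0872). From day 28 to day 40 none of the 34 passed in limma (11 at an unadjusted p below 0.05, median 0.29). Of the 34, 27 were above 0, as were 11136 of the 16422 genes. Among these 11, only Ifng and Irf8 were below 0, and they are named here after their values were seen. Ifng, the gene of interferon gamma, was at -1.45 ± 0.28 (limma adjusted p = 0.113). Irf8, a factor of myeloid and B cells, was at -0.93 ± 0.14 (adjusted p = 0.062). The others of the 11 were above 0, from 0.41 for Irgm2 to 0.75 for Iigp1.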

How the data were processed

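One-colour Cy3 arrays of 6 RNA pools were used. Per the file headers, the authors extracted background-subtracted intensity with Feature Extraction 11.0.1.1 (array design 028005, annotation build mm9). The deposited values of the series give the log2 of that processed intensity for 30574 probes without scaling between arrays, and R 2.15.1 is named for it in the submitters' processing notes. Here control spots were dropped, outlier spots (109 to 195 an array) set to missing, repeated spots averaged, and log2 intensity lowered by each array's 75th percentile. No spot was saturated. Of 55681 probes, 27509 matched a single symbol of GRCm38.p6 by RefSeq accession. Genes took the value of the brightest probe that 2 or more arrays gave well above background, and 7 members had several probes.

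All 16422 genes were fitted with limma 3.58.1 (R 4.3.3, data.table version 1.17.8) on day and genotype, or on genotype by silica for the difference of responses, and called at a Benjamini-Hochberg adjusted p below 0.05. Intervals are 95%. Members and gene lists were chosen with earlier results of these data known. Named were all members, with per-array values for the classical genes, activators, called members and widest spans, up to 8 called genes of each further list, and Irf1. Some values under this rule are not given here. On simulated data (5 runs, 16422 genes) recovery of 2-fold changes was 24.8% for silica, 8.96% for day 40 against day 28 and 28.1% for genotype, and of 8-fold changes 94.5, 90.9 and 96.7%. Each run changed a small share of genes and gave the rest no effect of day or genotype. In the real data silica calls were 1725 up and 1532 down, and adjusted p-values depend on that share. The recoveries therefore describe the simulated setting only. With 1 array per group no Dixon test for outliers could be run. Alternatives were normexp on the median signal (offset 50; the mean signal was not used here), quantile normalization, the authors' values, no filter, a filter on all 6 arrays, averaging the probes of a gene, blocking on slide row, omitting 1 array at a time, and, chosen after seeing the data, scaling on the median of genes above background on all 6 arrays.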

Additional observations from a re-analysis of the deposited data

How the results depend on the processing

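No member changed direction past the threshold under any alternative run. After silica 1 member was called, against 5 with normexp, 0 with no filter, 4 with a filter on all 6 arrays, 0 with the slide row as a block, 2 with the added median scaling and 0 to 2 without 1 array (0 without any array except WT day 40). From day 28 to day 40, 3 were called, against 7 with normexp, 10 with the authors' table, 0 with the slide row as a block and 0 to 3 without 1 array (0 without any silica array). Fits with a block or a left-out array had 1 residual degree of freedom. Slide row and silica could hardly be told apart, since of the silica arrays only Ccr2KO day 28 shared a row with the untreated arrays. For day 40 against day 28 and for Ccr2KO minus WT, the block was the same fit as leaving out Ccr2KO day 28. Ccr2KO minus WT and the difference of the silica responses called 0 members under each alternative run, and the latter could not be fitted without an untreated array. Over all genes, silica calls were 53% upward (1725 up, 1532 down) and 26.5% upward in the authors' table (1309 up, 3628 down). Day 40 against day 28 was 7.35% upward and 20.7% with normexp. That table moved the median of all genes from -0.01 to -0.19 for silica and from 0.10 to -0.25 for day 40 against day 28. No paired analysis was possible because each group has 1 array and the labels carry no replicate numbers.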
